A study of Mus musculus and Rattus norvegicus with 2 samples.

Results

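The miR-30 family was described in small RNAs of purified sperm from the cauda epididymis, the tail end of the duct where sperm complete their maturation. There was 1 mouse library (C57BL/6, 2 months old) and 1 rat library (Sprague Dawley young adults, 450 g), each made from RNA of 18 to 45 nt and sequenced on an Illumina GAIIx. No treatment, mutation or transgene was named for either library, and how many animals were pooled is not given here by any source used. Members were the sequences that carried a deposited name miR-30a to miR-30e, of either arm, plus sequences under any other label that shared the first 18 nt of the top mouse sequence of such a name. The rule found 69 distinct sequences and 675 reads in mouse sperm, and 69 distinct sequences and 821 reads in rat sperm. They held 10 of the 285 mature miRNA names seen in the libraries together, 9 of them in each species.

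MicroRNAs are cut by Drosha and Dicer out of a hairpin, whose 5′ and 3′ strands are called the 5p and 3p arms, and are loaded into Argonaute proteins. The seed, bases 2 to 8 from the 5′ end, pairs with target mRNAs. The miR-30 family is encoded by several hairpins that give 5p strands with the same seed, and it is broadly expressed in mammalian tissues. Variants of a miRNA that differ at their ends are called isomiRs.

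The 5p sequences are shown because their shared seed and the few bases that set them apart decide how reads were assigned. Capitals mark the seed. The sequences of miR-30a, miR-30c and miR-30e are RefSeq's for mouse, from a table built on GRCm38.p6, and those of miR-30b and miR-30d are the longest perfectly matched mouse sequences deposited under these names.
miR-30a-5p: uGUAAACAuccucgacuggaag
miR-30b-5p: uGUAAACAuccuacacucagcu
miR-30c-5p: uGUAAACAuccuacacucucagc
miR-30d-5p: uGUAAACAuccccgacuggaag
miR-30e-5p: uGUAAACAuccuugacuggaag
With positions counted from 1 at the 5′ end, miR-30d-5p differed from miR-30a-5p by U12C alone, and miR-30e-5p from miR-30a-5p by C13U alone. The members miR-30b-5p and miR-30c-5p shared their first 18 nt and first parted at A19U. All 675 mouse and 821 rat reads could be given to a single nearest member, and 0 reads had a sequence nearer to another member than to the one their deposited name gave.

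The 3p strands carry other seeds, and they fell into groups by them.
miR-30a-3p: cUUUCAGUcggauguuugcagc
miR-30e-3p: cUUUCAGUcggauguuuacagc
miR-30c-2-3p: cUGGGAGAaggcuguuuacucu
miR-30b-3p: cUGGGAUGuggauguuuacguc
The first pair shared the seed UUUCAGU, as did miR-30d-3p. The seed of miR-30c-2-3p was also that of miR-30c-1-3p, and miR-30b-3p had another. These are RefSeq's sequences too, other than that of miR-30b-3p, which is the deposited mouse read.

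In the mouse genome (GRCm38, GENCODE M21 annotation), the hairpins lie in neighbouring pairs. Mir30a is at chr1:23272269-23272339 on the plus strand, outside any other annotated gene, with Mir30c-2 19361 bases away at chr1:23291701-23291784, in an exon of the lincRNA Gm27028. Mir30c-1 at chr4:120769534-120769622 and Mir30e at chr4:120772606-120772697 are 2983 bases apart on the minus strand, both in introns of Nfyc, which codes for a subunit of the transcription factor NF-Y. Mir30b at chr15:68337415-68337510 and Mir30d at chr15:68341208-68341289 are 3697 bases apart on the minus strand, over exons of the transcripts Gm26621 and Gm20732. The 2 hairpins Mir30c-1 and Mir30c-2 share their 5p sequence, so miR-30c-5p reads cannot be given to either. The submitters' processing notes name the builds mm9 and rn5, and the deposited tables give no genome coordinates.

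The tables listed 714352 mouse and 2102735 rat reads, of which 24016 mouse and 25951 rat reads had a mature miRNA name. The identifiers rank sequences by count, and 46.7% of the mouse and 31.4% of the rat identifiers are not in the tables used here, so the reads under them were not analysed. Up to the rank of the most abundant miR-30 sequence, 44.7% of the mouse and 87.7% of the rat identifiers were listed, and whether any unlisted one was a miR-30 form was not tested. All values below therefore describe the listed sequences. Marker miRNAs of sperm (miR-34b, miR-34c and miR-449a) had reads for 4 of 4 names in each library, with 458 reads in mouse sperm and 7096 in rat sperm, or 1.69% of mouse and 25.1% of rat reads under miRNA labels. Epithelial markers had reads for 6 of 6 names in each, with 662 mouse and 339 rat reads, mostly miR-375-3p and miR-141-3p. For stroma and muscle it was 4 of 5 names, with 2418 mouse and 873 rat reads, nearly all miR-143-3p, and miR-1a-3p was at 0 in both. For blood it was 3 of 6 names, with 106 mouse reads, nearly all miR-486-5p and miR-451a, and 4 rat reads. Of the blood names, miR-144-3p and miR-223-3p were at 0 in both. The part of these other cell types in the miR-30 values was not tested, and in a bulk library fewer cells of a type and less RNA per cell cannot be told apart.

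As each species had a single library, no replicate error could be had and no test was run. Each interval in brackets is an exact 95% interval (Clopper-Pearson for shares, Poisson for counts) and covers counting error only. Reads amplified by PCR may be copies of the same molecule, and the intervals may then be too narrow even for counting error. For a count of 0, 3 reads were taken as the limit in place of the interval's upper bound, or 0.000420% of listed reads in mouse sperm and 0.000143% in rat sperm.

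The family as a whole took a similar share of the miRNA reads in both libraries. It had 675 mouse reads (625 to 728) and 821 rat reads (766 to 879). That was 2.79% of mouse miRNA reads (2.58 to 3.002) and 3.13% of rat miRNA reads (2.92 to 3.35), a log2 ratio of mouse over rat of -0.17 (-0.32 to -0.02). Here miRNA reads were those with a mature miRNA name plus the family's own reads under GenBank microRNA entries. These totals were 24224 mouse and 26236 rat reads. GenBank-labelled reads of other miRNAs were left out, which raises the family's share. Scaled to all mature and GenBank microRNA reads, the log2 ratio was -0.29 (-0.44 to -0.14). Of all listed reads, the mouse family made up 0.0945% and the rat family 0.0390%, and on that scale the log2 ratio was 1.27 (1.13 to 1.42). The direction of the family's difference thus turned with the scale, since miRNA reads were a smaller part of the rat library. Scaled so that the median ratio of 52 miRNA names was 0, it was 0.11 (-0.04 to 0.26).

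miR-30a-5p was the most abundant member in both species, followed by miR-30d-5p, miR-30e-5p, miR-30c-5p and miR-30b-5p in the same order. It took 51.3% of the family's reads in mouse sperm (47.4 to 55.1; 346 reads) and 38.4% in rat sperm (35.03 to 41.8; 315 reads), and these intervals did not overlap. miR-30d-5p took 24.3% in mouse sperm (21.1 to 27.7; 164 reads) and 28.0% in rat sperm (24.97 to 31.2; 230 reads). miR-30e-5p took 14.1% in mouse sperm (11.5 to 16.9; 95 reads) and 16.0% in rat sperm (13.5 to 18.6; 131 reads). For miR-30d-5p and miR-30e-5p the intervals overlapped between the species. Within each library, no interval of these 3 members overlapped that of another.

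The rarer members had larger shares of the family in rat sperm. miR-30c-5p took 6.67% in mouse sperm (4.90 to 8.82; 45 reads) and 9.99% in rat sperm (8.02 to 12.2; 82 reads), with intervals that just overlapped. miR-30b-5p took 1.63% in mouse sperm (0.816 to 2.90; 11 reads) and 5.60% in rat sperm (4.13 to 7.40; 46 reads), and its intervals did not overlap. Of the 11 mouse reads of miR-30b-5p, 9 came from a single sequence whose count cell was blank and whose count was read from its identifier, so that 2 reads remained without it and the log2 ratio of mouse over rat, given next with it, was -4.36 (-7.47 to -2.44).

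**Figure D1:**
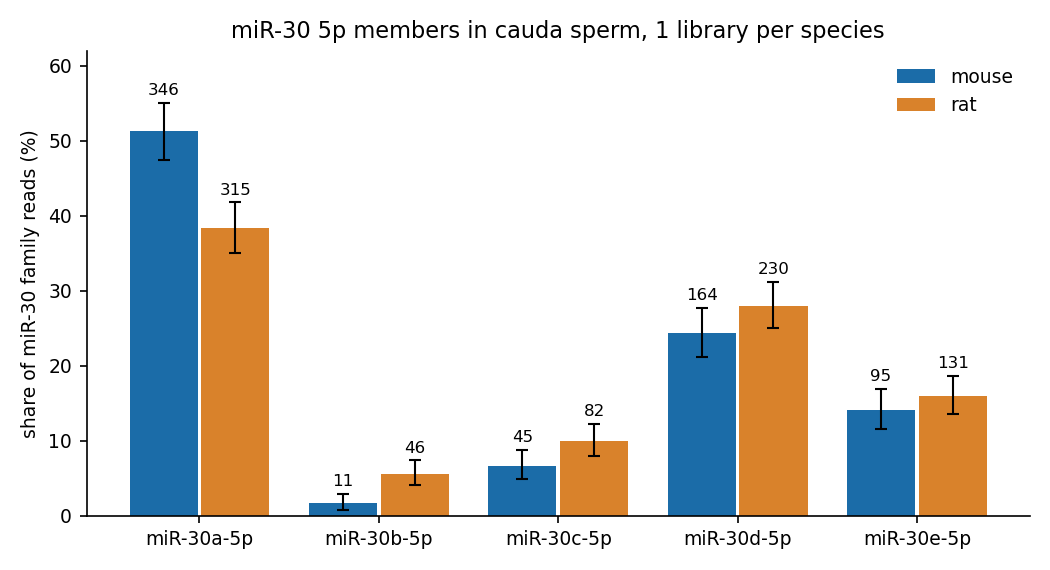
Share of miR-30 family reads (%) taken by each 5p member in the mouse library (blue, left) and the rat library (orange, right), with exact 95% counting intervals and the number of reads above each bar. The bar of miR-30a-5p is the tallest in both species, at 51.3% in mouse sperm and 38.4% in rat sperm, and that of miR-30b-5p the lowest, at 1.63% for the mouse and 5.60% for the rat.

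Scaled to miRNA reads, miR-30a-5p was the only one of the 5 5p members with a positive log2 ratio of mouse over rat, 0.25 (0.03 to 0.48). With perfect matches only, both in the member and in the miRNA reads it was scaled to, its ratio was 0.083 (-0.15 to 0.317). Of its own reads, 19 of 346 in mouse and 29 of 315 in rat sperm had a mismatch, so the lower ratio reflects the changed scaling total. Scaled to mature and GenBank microRNA reads, the ratio of miR-30a-5p was 0.13 (-0.095 to 0.355), and neither of these 2 intervals excluded equality. On the first scale, the ratio was -0.37 for miR-30d-5p (-0.67 to -0.08) and -0.35 for miR-30e-5p (-0.75 to 0.04). It was -0.75 for miR-30c-5p (-1.31 to -0.21) and -1.95 for miR-30b-5p (-3.05 to -0.98). Scaled to all listed reads, the ratio was 1.69 for miR-30a-5p, 1.06 for miR-30d-5p, 1.08 for miR-30e-5p, 0.68 for miR-30c-5p and -0.48 for miR-30b-5p, so all but miR-30a-5p and miR-30b-5p changed sign with the scale.

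The family was then set beside all other miRNAs. For this, reads under GenBank microRNA entries were also given to miRNA names by their sequence and were counted in the scaling total, so the ratios differ slightly from those above. Of 101 miRNA names with at least 10 reads in either library, 34.7% had a log2 ratio above 1 and 30.7% a log2 ratio below -1. Of the 5 miR-30 names among them, 0 were above 1 and 1, miR-30b-5p at -1.999 (-3.10 to -1.03), was below -1. The median log2 ratio was -0.43 over the 5 miR-30 names and -0.04 over all 101. The 101 included names seen in a single species, such as let-7g-5p with 43 mouse and 0 rat reads. Over the 60 names with at least 10 reads in both libraries, the 5 miR-30 names among them, the median was -0.28. With counts of 0 and 1 in 5 beside those shares, these counts do not set the members apart from other miRNAs. By reads, miR-30a-5p ranked 9 among mouse and 10 among rat names, and miR-30d-5p ranked 20 among mouse and 14 among rat names. miR-30e-5p ranked 25 in mouse and 23 in rat sperm, and miR-30c-5p 41 in mouse and 29 in rat sperm. miR-30b-5p ranked 80 in mouse and 43 in rat sperm, the widest gap of the 5.

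**Figure D2:**
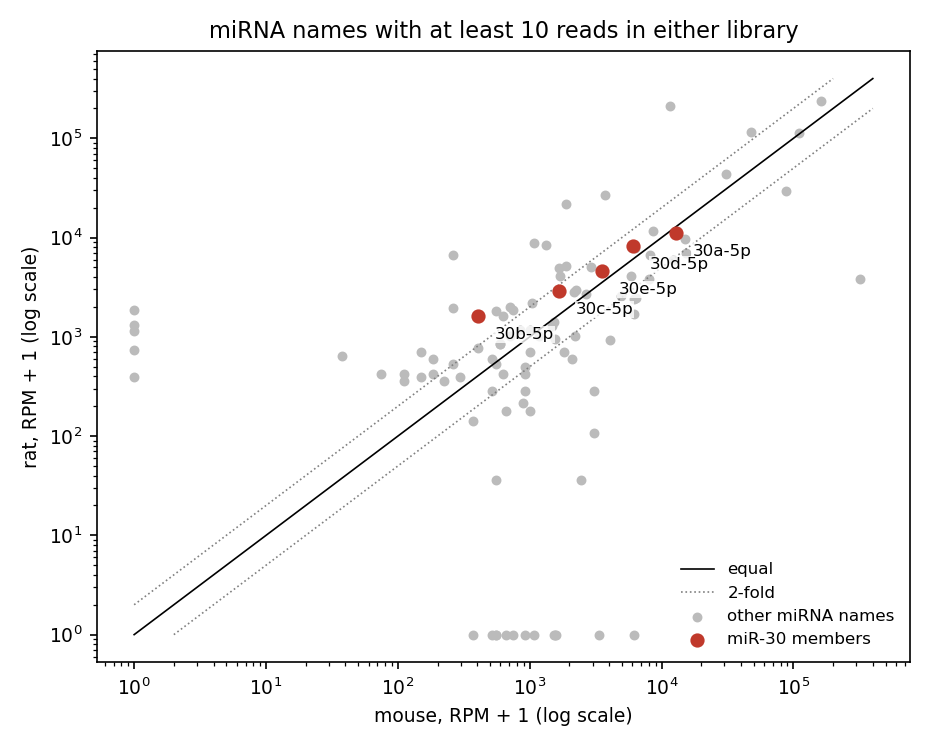
miRNA reads scaled to a sum of 1000000 (RPM, plus 1) of 101 miRNA names in the mouse library (horizontal axis, log scale) and the rat library (vertical axis, log scale), with the 5 miR-30 members in red and lines at equality and at a 2-fold difference. Of the miR-30 members, 4 lie between the 2-fold lines and miR-30b-5p lies above them, on the side of the rat.

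Among the 16 other names with at least 100 reads in both libraries, the log2 ratio nearest to that of the family, -0.22 on this scale, was that of miR-26a-5p, with 170 mouse and 223 rat reads and a ratio of -0.33. Next came miR-191-5p, with 2997 mouse and 3215 rat reads and a ratio of -0.04, and let-7c-5p, with 233 mouse and 326 rat reads and a ratio of -0.42. The likeness is over 2 libraries only.

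The mature members encoded by neighbouring hairpins differed in their reads. miR-30b-5p had 6.29% of the reads of itself and miR-30d-5p together in mouse sperm (3.18 to 10.97) and 16.7% in rat sperm (12.5 to 21.6). miR-30c-5p had 32.1% of the reads of itself and miR-30e-5p together in mouse sperm (24.5 to 40.6) and 38.5% in rat sperm (31.9 to 45.4). Beside miR-30a-5p, it had 11.5% in mouse sperm (8.52 to 15.1) and 20.7% in rat sperm (16.8 to 24.98). The same miR-30c-5p reads stand in both comparisons, as they cannot be given to Mir30c-1 or Mir30c-2. These shares therefore do not compare single hairpins. Reads of different miRNAs also depend on how well each sequence is ligated and amplified, which was not measured here.

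Nearly all reads came from the 5p arm. The 3p strands together had 14 of 675 reads in mouse sperm, or 2.07% (1.14 to 3.46), and 17 of 821 in rat sperm, or 2.07% (1.21 to 3.29). This made 47.2 5p reads per 3p read in mouse sperm and 47.3 in rat sperm. miR-30a-3p had 3 mouse and 5 rat reads, against 346 mouse and 315 rat reads of miR-30a-5p. Its share of both arms was 0.860% in mouse sperm (0.178 to 2.49) and 1.56% in rat sperm (0.509 to 3.61), with intervals that overlapped.

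The other hairpins also gave few 3p reads. miR-30e-3p had 4 mouse and 7 rat reads, or 4.04% of both arms in mouse sperm (1.11 to 10.02) and 5.07% in rat sperm (2.06 to 10.2). miR-30c-2-3p had 5 mouse and 4 rat reads, and the 3p strand of Mir30c-1 had 0 in both. miR-30b-3p had 2 reads in mouse sperm and 0 in rat sperm, and miR-30d-3p had 0 in mouse sperm and 1 in rat sperm. These counts could not show a difference between the species.

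The 5p members also differed in where their reads ended. Base 20, short of the annotated end, was the most frequent last base of miR-30a-5p and miR-30d-5p, while most reads of miR-30e-5p and miR-30c-5p ran to base 23 or 24. The forms that carry this pattern are shown as deposited, in DNA letters, with capitals for the bases past the annotated mature end.
miR-30a-5p, 20 nt: tgtaaacatcctcgactgga
miR-30a-5p, 23 nt: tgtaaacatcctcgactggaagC
miR-30a-5p, 24 nt: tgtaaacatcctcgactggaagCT
miR-30d-5p, 20 nt: tgtaaacatccccgactgga
miR-30e-5p, 23 nt: tgtaaacatccttgactggaagC
miR-30e-5p, 24 nt: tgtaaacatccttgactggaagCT
miR-30c-5p, 23 nt: tgtaaacatcctacactctcagc
miR-30c-5p, 24 nt: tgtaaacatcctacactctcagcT
The 20-nt form of miR-30a-5p was the most abundant family sequence in both species, with 275 mouse and 206 rat reads. That of miR-30d-5p had 80 mouse and 109 rat reads. The 24-nt form of miR-30e-5p had 78 mouse and 61 rat reads. Its 23-nt form had 4 mouse and 45 rat reads. The 24-nt form of miR-30c-5p had 26 mouse and 9 rat reads, and its 23-nt form 5 mouse and 62 rat reads.

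By member, 84.4% of miR-30a-5p reads ended at base 20 in mouse sperm (80.1 to 88.1) and 70.2% in rat sperm (64.8 to 75.2). For miR-30d-5p it was 53.0% in mouse sperm (45.1 to 60.9) and 48.7% in rat sperm (42.1 to 55.4). For miR-30e-5p it was 8.42% in mouse sperm (3.71 to 15.9) and 5.34% in rat sperm (2.18 to 10.7). miR-30c-5p had 0 of 45 such reads in mouse sperm and 1 of 82 in rat sperm, and miR-30b-5p had 0 of 11 in mouse sperm and 0 of 46 in rat sperm. miR-30a-5p and miR-30e-5p, which differ at a single base, thus lay far apart in both libraries.

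Among the listed sequences, the full-length 22-nt form was rare for miR-30a-5p, miR-30d-5p and miR-30e-5p, which are annotated at that length. Over all 5p members, 58.5% of mouse reads (54.7 to 62.3) and 42.4% of rat reads (39.0 to 45.9) ended at base 20, and 4.99% of mouse and 6.09% of rat reads ended at base 22. By length, reads of 20 nt were 57.2% of the family in mouse sperm and 7.62% of the reads given to other miRNA names. In rat sperm they were 42.0% of the family and 4.20% of the others. Reads of 22 nt were 5.78% of the family in mouse sperm and 54.7% of the others, and 7.55% of the family in rat sperm and 35.8% of the others. The 22-nt form of miR-30a-5p had 8 mouse and 9 rat reads, and its mouse count too was blank and read from the identifier, so that 0 mouse reads remained without it. miR-30b-5p was the exception, with its mouse reads mostly at base 22 (10 of 11) and its rat reads mostly at base 21 (32 of 46). Of those 10 mouse reads, 9 came from the sequence with a blank count, so the mouse peak rests on that reading of the identifier.

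**Figure D3:**
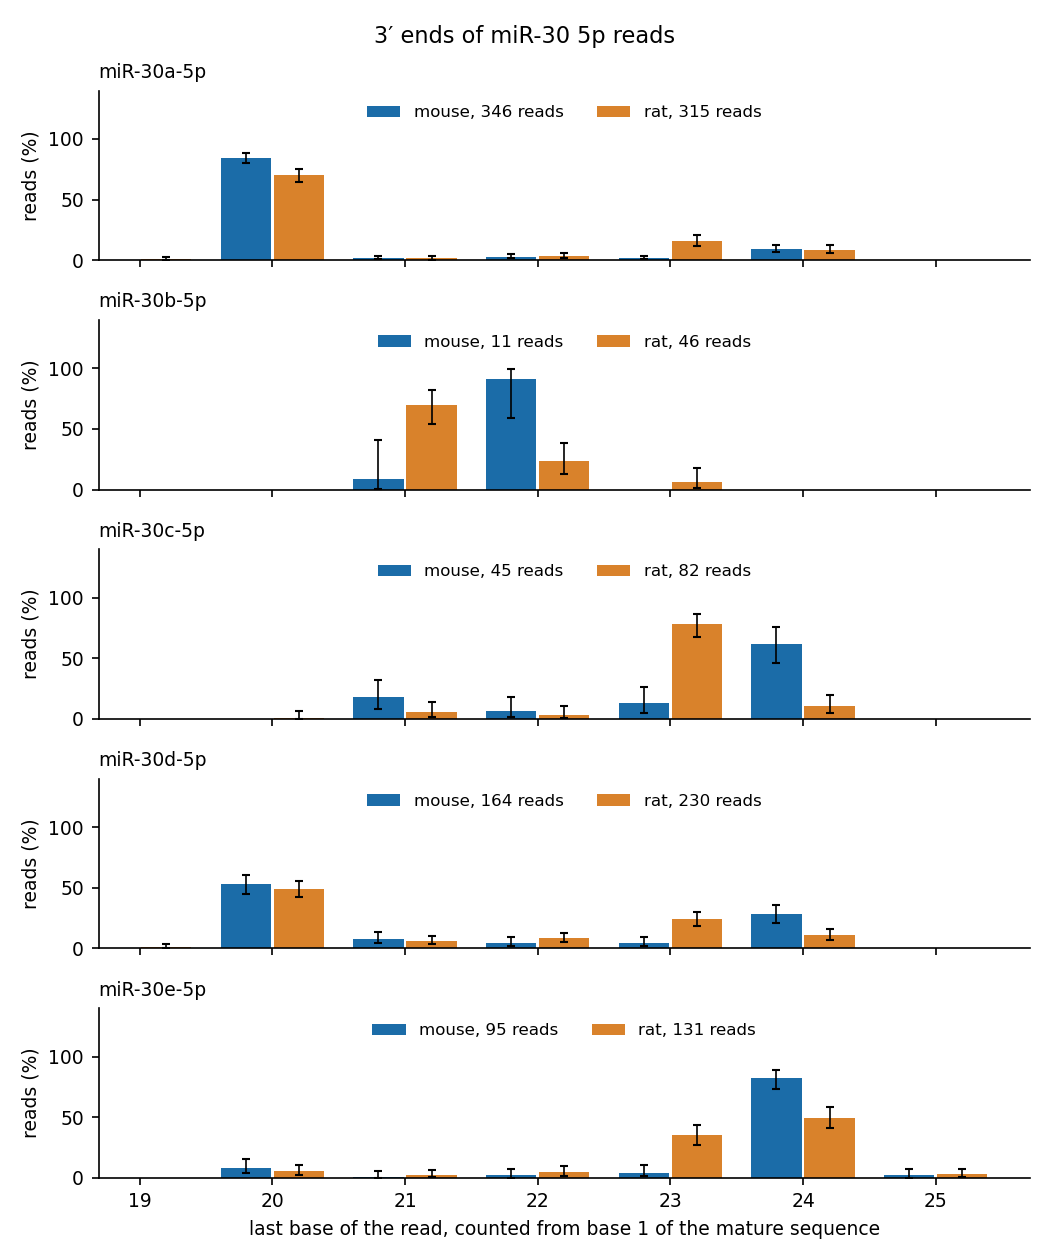
Share of reads (%) by last base, counted from base 1 of the mature sequence, for each 5p member in the mouse library (blue, left) and the rat library (orange, right), with exact 95% counting intervals; 3 reads that ended past base 25 are not drawn. miR-30a-5p peaks at base 20 in both species, and the long forms of miR-30c-5p peak at base 24 in mouse sperm and at base 23 in rat sperm.

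Among the long forms, the species differed by 1 base. Of the 208 mouse 5p reads that ended at base 23 or 24, 88.5% ended at base 24 (83.3 to 92.5), against 36.6% of 344 such reads in rat sperm (31.5 to 42.0). The share at base 24 was 84.2% in mouse sperm (68.7 to 94.0) and 35.1% in rat sperm (24.5 to 46.8) for miR-30a-5p. It was 85.2% in mouse sperm (72.9 to 93.4) and 31.3% in rat sperm (21.3 to 42.6) for miR-30d-5p. For miR-30e-5p it was 95.1% in mouse sperm (88.0 to 98.7) and 58.6% in rat sperm (48.8 to 67.8). For miR-30c-5p it was 82.4% in mouse sperm (65.5 to 93.2) and 12.3% in rat sperm (5.80 to 22.1). The intervals of the species did not overlap for any of these 4 members. The same direction held for the reads of 23 or 24 nt that could be given to other miRNA names. Of these, 43.4% were 24 nt in mouse sperm (42.1 to 44.8) and 7.74% in rat sperm (7.25 to 8.26). The direction was thus shared with the pooled reads of other names. That pool differed in makeup between the species, with miR-10b-5p at 8684 mouse and 109 rat reads. Ends of the other miRNAs were not compared name by name, so whether the difference was particular to the family was not tested.

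Reads of miR-30d-5p that ran further were rare in both species. A form of 26 nt and a form of 31 nt had 1 read each in mouse sperm and 0 in rat sperm.
miR-30d-5p, 26 nt: tgtaaacatccccgactggaagCTGT
miR-30d-5p, 31 nt: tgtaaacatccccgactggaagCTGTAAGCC
Capitals again mark the bases past base 22. A form of 27 nt, with 2 mismatches, had 1 read in rat sperm and was not seen in the mouse table.

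The deposited label of a read followed its 3′ end. Every 5p read that ended at base 22 or before had a miR-30 name, in both species. Every read that ended at base 24 or beyond was labelled with a GenBank microRNA entry, in both species. At base 23, 6 mouse and 64 rat reads had a miR-30 name, and 18 mouse and 154 rat reads had a GenBank entry. Those with a name were miR-30c-5p, whose annotated form is 23 nt.

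In all, 208 of the mouse reads, or 30.8% (27.3 to 34.5), and 285 of the rat reads, or 34.7% (31.5 to 38.1), had a GenBank label. Among reads that could be given to other miRNA names, this share was 10.7% in mouse sperm and 7.30% in rat sperm. Those included 2826 mouse and 2002 rat GenBank reads. The libraries held 5066 mouse and 3017 rat reads under GenBank microRNA entries, and those given to no name were left out. Only 11 mouse and 16 rat reads had the name miR-30e-5p. Among members, the GenBank share was highest for it, with 88.4% in mouse sperm and 87.8% in rat sperm. For miR-30d-5p it was 34.1% in mouse sperm and 35.2% in rat sperm, and for miR-30a-5p 10.98% in mouse sperm and 24.4% in rat sperm. For miR-30c-5p it was 62.2% in mouse sperm and 10.98% in rat sperm. Its most abundant form ended at base 24 in mouse sperm and at base 23 in rat sperm. The mouse entry with the most such reads was that of Mir30e, with 84.

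**Figure D4:**
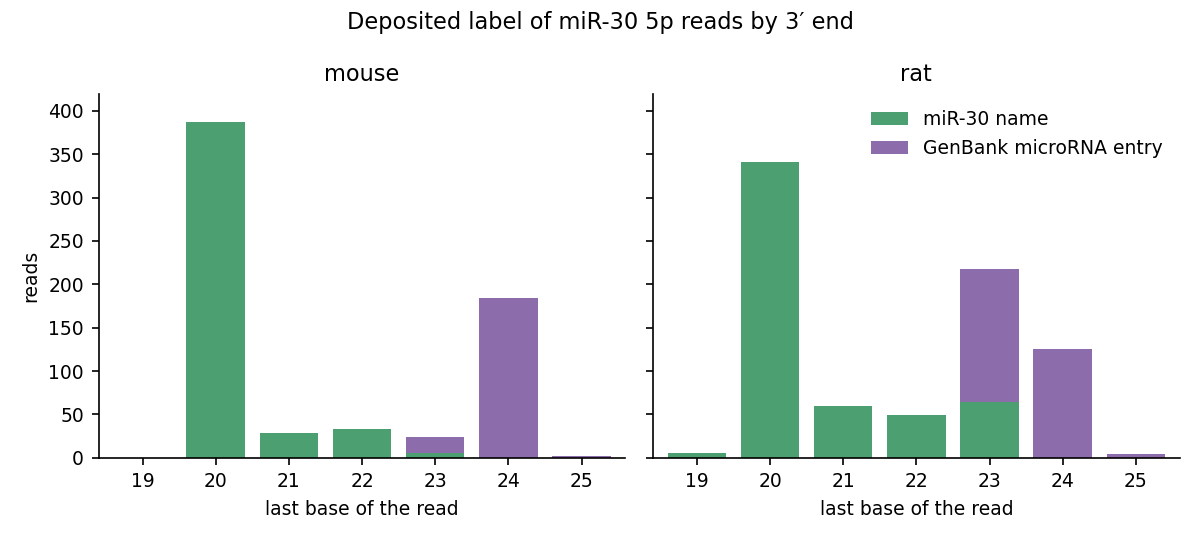
Reads of the 5p members by last base in the mouse library (left) and the rat library (right), split by deposited label into miR-30 names (green) and GenBank microRNA entries (purple); reads that ended past base 25 are not drawn. All reads through base 22 carry a name, all from base 24 on carry a GenBank entry, and base 23 holds 24 reads in mouse sperm and 218 in rat sperm.

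Counting by deposited name alone therefore changed the composition. By name, miR-30a-5p had 66.0% of the family's reads in mouse sperm and 44.4% in rat sperm, and miR-30e-5p 2.36% in mouse sperm and 2.99% in rat sperm. miR-30c-5p had 3.64% in mouse sperm (2.13 to 5.76) and 13.6% in rat sperm (10.8 to 16.8), intervals that did not overlap, and its log2 ratio of mouse over rat was then -1.99 (-2.85 to -1.21).

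The 5′ end varied little. Of 5p reads, 99.1% started at base 1 in mouse sperm (98.0 to 99.7) and 99.9% in rat sperm (99.3 to 100). The rule by first bases favours such reads. When every sequence that held bases 4 to 18 of a mature sequence was added, the shares were 97.5% for mouse and 97.7% for rat reads. miR-30e-5p then had 6 of 101 mouse reads (5.94%; 2.21 to 12.5) and 12 of 144 rat reads (8.33%; 4.38 to 14.1) that did not start at base 1, against 9 of 352 mouse reads (2.56%; 1.18 to 4.80) and 5 of 321 rat reads (1.56%; 0.508 to 3.597) of miR-30a-5p. The seed stood unaltered at read bases 2 to 8 in 97.1% of mouse and 98.3% of rat 5p reads. Among sequences that the rule did not take, the seed stood at these bases in 1 mouse and 1 rat read of 23 nt, and both were labelled with GenBank entries that also label family reads, of miR-30a-5p in the mouse and of miR-30d-5p in the rat. miR-384, which has the same seed, had 0 reads in both.

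Mismatches, as the deposited tables mark them, were mostly at the last base. They stood in 45 of 675 family reads in mouse sperm, or 6.67% (4.90 to 8.82), and in 80 of 821 in rat sperm, or 9.74% (7.80 to 11.98). A mismatch at the last base stood in 4.0% of mouse reads (2.65 to 5.77) and 7.67% of rat reads (5.95 to 9.71), and these intervals did not overlap. This share was not measured for other miRNAs, so whether the difference was particular to the family was not tested. A mismatch before it stood in 2.67% of mouse reads (1.59 to 4.18) and 2.44% of rat reads (1.49 to 3.74). Of the 43 mouse mismatches in 5p reads, 25 were at the last base and 13 in the seed. Of the 82 rat mismatches, 62 were at the last base and 13 in the seed.

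At the mismatched last base, A was the most frequent letter, in 9 of 25 mouse reads and 28 of 62 rat reads. Of these, 5 mouse and 14 rat reads were G22A of miR-30d-5p, and without them U was more frequent than A. Base 20 of miR-30a-5p, miR-30d-5p and miR-30e-5p is itself A, so A cannot be a mismatch there. U stood there in 7 mouse and 24 rat reads, G in 7 mouse and 5 rat reads, and C in 2 mouse and 5 rat reads. Among members, last-base mismatches were most frequent in rat sperm for miR-30d-5p, with 10 of 164 mouse reads, or 6.10% (2.96 to 10.9), and 30 of 230 rat reads, or 13.0% (8.98 to 18.1).

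A single substitution, G22A, made up 5 of these 10 mouse reads and 14 of these 30 rat reads of miR-30d-5p. Capitals mark the last base in these 22-nt forms.
miR-30d-5p with G22A: tgtaaacatccccgactggaaA
miR-30a-5p with G22A: tgtaaacatcctcgactggaaA
Of the miR-30d-5p reads that ran from base 1 to base 22, 5 of 8 in mouse sperm, or 62.5% (24.5 to 91.5), and 14 of 19 in rat sperm, or 73.7% (48.8 to 90.9), had G22A. For miR-30a-5p it was 1 of 9 in mouse sperm, or 11.1% (0.281 to 48.2), and 1 of 10 in rat sperm, or 10% (0.253 to 44.5). The 8 other mouse reads of miR-30a-5p all come from a sequence with a blank count read from its identifier, and without it the mouse value was 1 of 1. For miR-30e-5p it was 0 of 2 in mouse sperm and 0 of 6 in rat sperm. The members miR-30a-5p and miR-30d-5p have the same bases around this position, and the intervals in the rat did not overlap.

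The species shared most of their reads sequence by sequence. Of the distinct family sequences, 43 were seen in both and held 95.3% of mouse family reads and 95.5% of rat family reads. The 26 sequences seen in the mouse only had at most 3 reads each, and the 26 in the rat only at most 4. No abundant form was thus listed in one species alone.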

How the data were processed

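For each sequence, the authors deposited its count of reads, strand, database label and mismatches, per the file headers. The submitters' processing notes name the builds mm9 and rn5, with no role given, and Bowtie 0.12.7. How adapters were trimmed and multiple matches resolved is not given here by any source used. In 2535 mouse lines (22971 reads, 3 of them family sequences with 28 reads) the count was blank and the identifier had the form of a month and number; the month, 7 to 12, was read as the count. Members, lists and rules were chosen with earlier results of these data known.

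Each sequence went to the nearest mature member, with a shift of up to 3 bases. Counts were scaled to 1000000 miRNA reads, RPM (24224 mouse, 26236 rat), with a pseudocount of 1 RPM in log2 ratios. In the comparison with other miRNA names, the total also held the GenBank reads given to those names (2826 mouse, 2002 rat). The intervals of the log2 ratios are exact and conditional, without the pseudocount. The mouse spelling was used for 14 rat names. Python 3.11.15, SciPy 1.17.1, NumPy 2.4.6 and matplotlib 3.10.9 were used, and the assignment was tested on simulated data. Named were every member with a read, miR-384, the most abundant other label, the most abundant outside sequence with the seed, and the 3 miRNAs nearest in log2 ratio. Alternatives covered the sequences counted, lengths, scaling and pseudocounts. Scaling to GenBank microRNA reads, the blank counts and shifted sequences were added after seeing the data.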

Additional observations from a re-analysis of the deposited data

Results flagged for a closer look

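Signal was also found outside the sequences counted as members: 16 mouse reads and 24 rat reads held bases 4 to 18 of a miR-30 sequence but had another label and other first bases. They were 12 distinct sequences in each species. Of them, 8 mouse and 17 rat reads started at base 2, among them 4 mouse and 12 rat reads of miR-30e-5p. No control library was available to set them against.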

How the results depend on the processing

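No paired analysis was possible because each species had a single library, and for the same reason no replicate could be left out. The family's log2 ratio of -0.17 became 1.27 on the scale of all listed reads and 0.11 when scaled by the median ratio of miRNA names. With perfect matches only, both in the family and in the miRNA reads it was scaled to, the ratio was -0.34. Scaled to all listed reads, miR-30c-5p turned to 0.68 and miR-30d-5p to 1.06. With deposited names only, miR-30a-5p took 66.0% of mouse and 44.4% of rat family reads, miR-30e-5p 2.36% of mouse and 2.99% of rat reads, reads ending at base 20 were 85.1% in mouse and 65.7% in rat sperm, and the share at base 24 of those ending at 23 or 24 was 0% in both, since names stop at the annotated end. Counting each distinct sequence once gave 37.3% of mouse and 25.8% of rat 5p sequences at base 20, 47.1% of mouse and 42.9% of rat long forms at base 24, 93.2% of mouse and 98.4% of rat 5p sequences starting at base 1, and 49.3% of mouse and 55.1% of rat sequences with a mismatch. Sequences with at least 5 reads gave 94.2% of mouse long forms at base 24, starts at base 1 of 100% in both, mismatches in 0.838% of mouse and 4.56% of rat reads, and a 3p share of miR-30a of 0% in both. Starts at base 1 were 99.7% in the mouse within 20 to 24 nt, and 97.5% in mouse and 97.7% in rat sperm with shifted sequences added. Without the blank counts, the log2 ratio of miR-30b-5p was -4.36 (-7.47 to -2.44). Low counts limit the 3p strands, miR-30b-5p in the mouse and the G22A shares.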
